A study of Mus musculus with 46 samples.

Results

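The cytochrome P450 genes of the mouse are described here in 4 cell populations sorted from the kidney. They were the 94 genes, of 53465 in the deposited expression table, whose symbol is written as Cyp followed by a family number, a subfamily letter and a gene number. All 94 were annotated as protein coding, and they lay on 15 chromosomes of the mm10 assembly, in clusters that follow the subfamilies: 18 on chromosome 19, with all of subfamily 2c, 16 on chromosome 4, with 2j and 4a, and 15 on chromosome 7. The mice were wild type male C57BL/6 animals, 8 to 12 weeks old. They had sham surgery, unilateral ureteric obstruction (UUO), in which 1 ureter is tied, or reversible UUO (rUUO), in which the obstruction is later relieved and the kidney is taken 14 days after reversal. The study culled UUO mice at day 2 or day 7, and the sample labels do not say which UUO sample is from which day. Proximal tubular (PT) cells were sorted by binding of Lotus lectin (LTL+), macrophages by F4/80, endothelial cells by CD31 and stromal cells by PDGFRB. The samples used were 3 PT sham, 4 PT UUO and 3 PT rUUO, then 4, 4 and 3 macrophage, 4, 3 and 4 endothelial and 4, 4 and 4 stromal samples in the same order of surgeries.

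P450 enzymes are haem proteins that insert an oxygen atom into drugs, fatty acids, sterols, retinoids and vitamin D. Most sit in the endoplasmic reticulum and take electrons from the reductase encoded by Por, while the mitochondrial members, such as Cyp24a1, Cyp27a1 and Cyp27b1, use ferredoxin. In the kidney the proximal tubule is known as the main site of P450 expression, for the making and breaking of active vitamin D and for the oxidation of arachidonic acid and other fatty acids.

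Values are FPKM, fragment numbers scaled by the authors to transcript length and library size, which are set per length and so allow levels of different genes to be compared. Changes are differences of mean log2(FPKM + 1) with their standard error (SE) from limma, a linear model fitted across all genes of a population, and a change was called where the Benjamini-Hochberg adjusted p over all genes tested was under 0.05. The scale understates the change of low genes. Of the 94 genes, 24 were at 0 in every sample used and another 24 stayed below 1 FPKM throughout. To be tested, a gene had to average 1 FPKM or more across a population's samples, which 28 P450 genes passed in PT cells, 13 in macrophages, 22 in endothelial cells and 17 in stromal cells, 33 in at least 1 population and 8 in all 4. The labels do not say whether samples of a group came from separate mice in each case, so p-values measure the spread between these samples. Because the populations are bulk samples, fewer cells of a type and less RNA per cell cannot be told apart.

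Some P450 genes are close copies, and a fragment from a shared stretch cannot be given to 1 gene. In the GENCODE M21 transcripts, 13 of the 33 genes that passed the filter somewhere had a run of 100 bases found exactly in another gene, and in 3 of them more than 10% of such windows were shared: Cyp2a5 (14.4%), Cyp4a10 (12.7%) and Cyp2a4 (11.2%). The 80 bases around the codons of the haem-binding cysteine loop, the most conserved stretch of the family, show this for 2 subfamilies. They are joined across exons 11 and 12 of the 4a genes and exons 8 and 9 of the 2a genes, and capitals mark bases that differ from the first sequence of each subfamily.
Cyp4a10, chr4:115529477-115532568, plus strand: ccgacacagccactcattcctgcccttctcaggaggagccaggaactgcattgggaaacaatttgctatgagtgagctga
Cyp4a31, chr4:115574925-115577973, plus strand: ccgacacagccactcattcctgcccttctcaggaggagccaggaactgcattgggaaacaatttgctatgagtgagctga
Cyp4a14, chr4:115487274-115489830, minus strand: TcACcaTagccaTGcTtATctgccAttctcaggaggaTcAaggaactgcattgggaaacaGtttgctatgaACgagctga
Cyp2a5, chr7:26841835-26842922, plus strand: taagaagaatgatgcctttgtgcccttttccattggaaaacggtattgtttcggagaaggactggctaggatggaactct
Cyp2a4, chr7:26313662-26314747, plus strand: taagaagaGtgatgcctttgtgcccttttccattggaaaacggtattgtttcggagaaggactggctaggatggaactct
Cyp4a31 had 0 bases different from Cyp4a10 over this stretch, Cyp4a14 had 15, and Cyp2a4 had 1 base different from Cyp2a5. Values of Cyp4a10, Cyp4a31 (8.22% of windows shared), Cyp2a5 and Cyp2a4 are therefore uncertain as to which copy they belong to. Just under the 10% mark, Cyp2d9 shared 9.86% of its windows and Cyp4f16 9.8%, of which 9.71% were with Cyp4f37. Their values are uncertain in the same way. Cyp2d26 and Cyp2d12, which had the largest falls in PT cells, shared 0.375% and 3.79% of their windows with another gene.

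In PT sham samples 3 genes made up 71.6% of the summed P450 level. Cyp4b1, a fatty acid and xenobiotic hydroxylase (chr4:115624725-115647723), was at 359, 272 and 351 FPKM. Cyp2j5, an epoxygenase of arachidonic acid known from the mouse proximal tubule (chr4:96628773-96664154), was at 277, 263 and 246 FPKM. Cyp2e1, which oxidises ethanol, acetone and small solvents (chr7:140763739-140774987), was at 252, 219 and 232 FPKM. Cyp2d26 followed at 109, 98.1 and 71.4 FPKM, then Cyp2j13 at a mean of 42.4, Cyp24a1 at 35.5, Cyp4a31 at 30.3, Cyp2d12 at 24.6 and Cyp4a10 at 22.7 FPKM. The first 10 genes held 94.6% of the sum.

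The summed FPKM of the 94 genes differed between the populations and, in PT cells, stromal cells and macrophages, between sham and the other surgeries. PT sham samples had a sum of 1152 ± 78.2 FPKM (SD, n = 3), PT UUO samples 651.6 ± 181 (SD, n = 4) and PT rUUO samples 700.5 ± 83.1 (SD, n = 3). The 3 PT sham samples, from 1106 to 1242, were all above the UUO samples, from 491.9 to 815.7, and the rUUO samples, from 637.2 to 794.6. In endothelial cells it was 587.4 ± 93.3, 446.9 ± 35.8 and 561.6 ± 72.8 in sham (n = 4), UUO (n = 3) and rUUO (n = 4), the second highest level among the populations. Stromal cells had 188.4 ± 21.3, 321.3 ± 38.9 and 337.4 ± 2.8 FPKM (SD, n = 4 each), with every UUO and rUUO sample above every sham sample. Without Cyp1b1 the stromal sums of the other 93 genes were 152.1 ± 13.5, 137.2 ± 20.7 and 167.5 ± 8.94 FPKM, with groups that overlapped. Macrophages had 185.2 ± 11.9, 132.5 ± 22 and 137.9 ± 5.12 FPKM in sham (n = 4), UUO (n = 4) and rUUO (n = 3). The macrophage sham samples, from 170.8 to 195.6, were all above the UUO samples, from 117.3 to 165.1, and the rUUO samples, from 132 to 141.2.

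**Figure D1:**
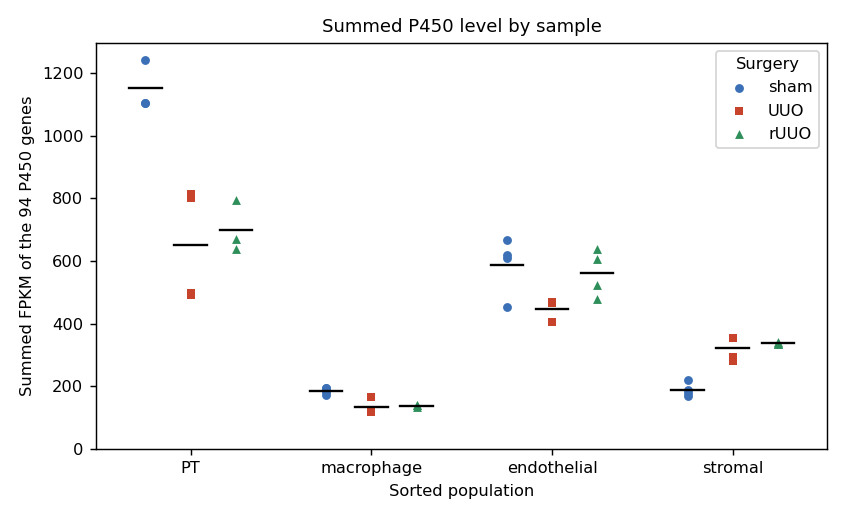
Summed FPKM of the 94 P450 genes (vertical axis, from 0) in each sample, by sorted population (horizontal axis) and surgery (colour and marker), with black bars for group means. The PT sham samples, at 1106 to 1242, are the highest, and the stromal UUO and rUUO samples lie above the stromal sham samples.

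The first comparison asked which P450 genes each resting population holds, from the sham samples. Of 28 P450 genes tested there, 12 were higher in PT cells than in each of the other 3 populations, against 5.88% of all genes tested. These were Cyp2j5, Cyp2e1, Cyp2d26, Cyp2j13, Cyp24a1, Cyp4a31, Cyp2d12, Cyp4a10, Cyp2j11, Cyp2c44, Cyp2a5 and Cyp2a4, a set that takes in epoxygenases, fatty acid hydroxylases, drug-metabolising enzymes and the vitamin D 24-hydroxylase. Their levels in sham macrophages were between 1.38% and 9.4% of those in PT sham, with a median of 4.37%, while 12 proximal tubule markers had a median of 4.22% there. In endothelial cells the 2 medians were 3.21% and 3.51%, and in stromal cells 1.55% and 2.11%. The median level of these 12 genes outside PT cells was thus of the size of that of the tubule markers. Single markers ran higher than any of the 12 genes. They reached 34.5% for Slc13a3 in macrophages, 637% for Aqp1 in endothelial cells and 39.8% for Aqp1 in stromal cells. How much of the level of the 12 genes was carried over from tubule cells was not tested. The filter of this comparison averages over the sham samples of all populations. Cyp2d12, Cyp4a10, Cyp2c44, Cyp2a5 and Cyp2a4 were at 1 FPKM or less on average in each other sham population. They passed through the PT samples and could hardly be highest elsewhere, so the count of 12 follows in part from the filter.

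Macrophages had 6 of the 28 genes at their highest, against 14.5% of all genes tested: Cyp27a1, Cyp4v3, Cyp4f18, Cyp4f13, Cyp4f16 and Cyp2r1. Cyp4f18, a leukotriene hydroxylase of myeloid cells (chr8:71988482-72009626), was at 14.3, 20.6, 26.1 and 21.4 FPKM in macrophage sham and at a mean of 0.153 FPKM in PT sham, a difference, PT minus macrophage, of -4.20 on the log2 scale (SE 0.25, adjusted p = 1.69e-10). Cyp27a1, the mitochondrial sterol 27-hydroxylase, was at 27.2, 29.8, 33.5 and 35.8 FPKM in macrophage sham and at 6.83, 8.67 and 7.19 FPKM in PT sham. Cyp2r1, a 25-hydroxylase of vitamin D, was lower, at 0.95 to 6.22 FPKM in macrophage sham. Cyp4f18 and Cyp2r1 were below 1 FPKM on average in each other sham population. They passed the filter through the macrophage samples and could hardly be highest elsewhere. When FPKM were rescaled without the mitochondrial genome, which took 68.9 to 75.6% of FPKM in PT sham and 24.6 to 28% in macrophage sham, 2 of the 28 genes were called highest in macrophages.

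Endothelial cells had 2 genes at their highest, against 5.77% of all genes tested. Cyp26b1, which breaks down retinoic acid (chr6:84571414-84593908), was at 90.7, 156, 61.1 and 22.9 FPKM in endothelial sham, against 3.56 ± 1.37 FPKM in stromal sham (SD, n = 4) and under 1 FPKM on average in PT cells and macrophages. The lowest endothelial sample was well above every sample of the other populations. Cyp2d22, often set beside human CYP2D6, was at 28.7, 26, 23.9 and 18 FPKM, against a mean of 6.84 in stromal sham. Cyp4b1 was at 390, 347, 364 and 303 FPKM in endothelial sham. In FPKM as deposited its difference, PT minus endothelial, was -0.11 on the log2 scale (SE 0.22, adjusted p = 0.695), beside a median of -0.93 over all genes tested. Without the mitochondrial genome, which took 32.5 to 43.5% of FPKM in endothelial sham, Cyp4b1 was higher in PT sham by 0.71 (SE 0.23, adjusted p = 0.0165), and after quantile normalization the difference was 0.62 (SE 0.25, adjusted p = 0.0599). Cyp20a1, a P450 with no known substrate, was also high in endothelial sham, at a mean of 57.6 FPKM, beside a difference from stromal sham of 0.48 (SE 0.22, adjusted p = 0.126) that did not pass, and is named after its values were seen.

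Stromal cells likewise had 2, against 8.72% of all genes tested. Cyp1b1, a hydroxylase of oestradiol and polycyclic hydrocarbons and a classic target of the aryl hydrocarbon receptor (chr17:79706953-79715041), was at 30.5, 47.8, 35.7 and 31.2 FPKM in stromal sham and at a mean of 3.43 in endothelial, 1.04 in macrophage and 0.54 in PT sham. Cyp2s1, a P450 of epithelia outside the liver, was at 10.3, 7.7, 9.53 and 7.93 FPKM in stromal sham and at a mean of 0.26 in PT sham. Its stromal level carried it past the filter of this comparison. Stromal sham also held tubule RNA, with a summed level of 325.2 to 418.1 FPKM for 6 thick ascending limb markers and 225.2 to 391 FPKM for 8 distal and collecting duct markers, against 25.13 to 29.2 and 41.25 to 43.61 in PT sham. Their part in the stromal Cyp2s1 level was not tested.

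**Figure D2:**
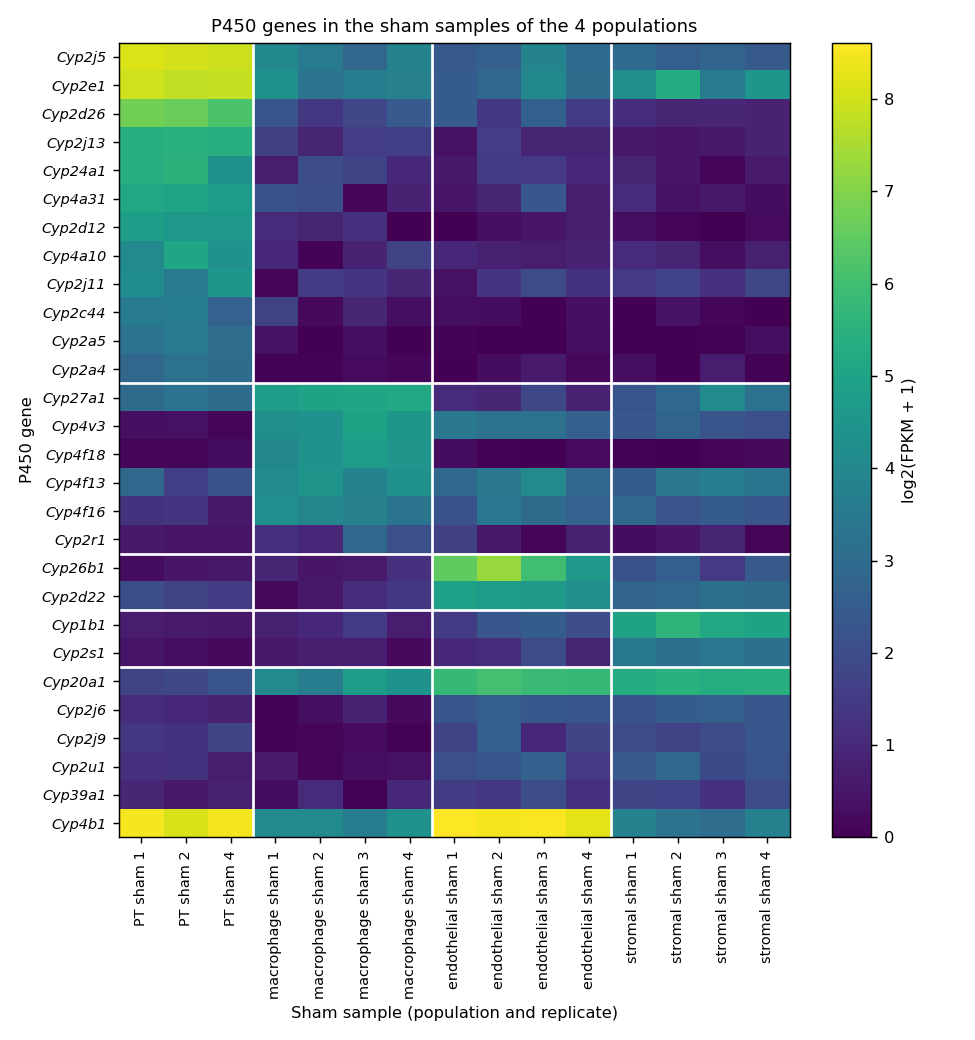
Heat map of log2(FPKM + 1) for the 28 P450 genes tested between sham populations (rows) in the 15 sham samples (columns), with white lines between populations and between the groups of genes highest in each population in the same order, and the 6 other genes last. Cyp4b1, in the last row, is bright in both PT and endothelial samples.

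The main comparison asked how the P450 genes of PT cells changed with obstruction. In PT UUO against PT sham 9 of the 28 genes tested were lower, where 4.91% of all genes tested were lower, and 7 were higher, where 27.9% were higher. The filter averages over sham, UUO and rUUO. Among the rises, Cyp2s1, Cyp4v3, Cyp3a13, Cyp39a1 and Cyp2j6 were below 1 FPKM on average in PT sham. They passed through the UUO and rUUO samples, so in both comparisons with PT sham they had little room to fall. The median change of the 28 was 0.05 on the log2 scale against 0.51 for all genes tested, so that relative to all genes the P450 genes lay lower. Over all genes the split of called changes moved with the scaling. It was 3186 higher and 561 lower with FPKM as deposited, 1953 and 861 with FPKM rescaled without the mitochondrial genome (median change 0.27), and 1283 and 1196 after quantile normalization (median -0.02). The P450 genes were 6 higher and 10 lower under the first of these alternatives, and 4 higher and 10 lower under the second. No P450 gene called in this comparison turned its direction under any of the alternatives run.

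**Figure D3:**
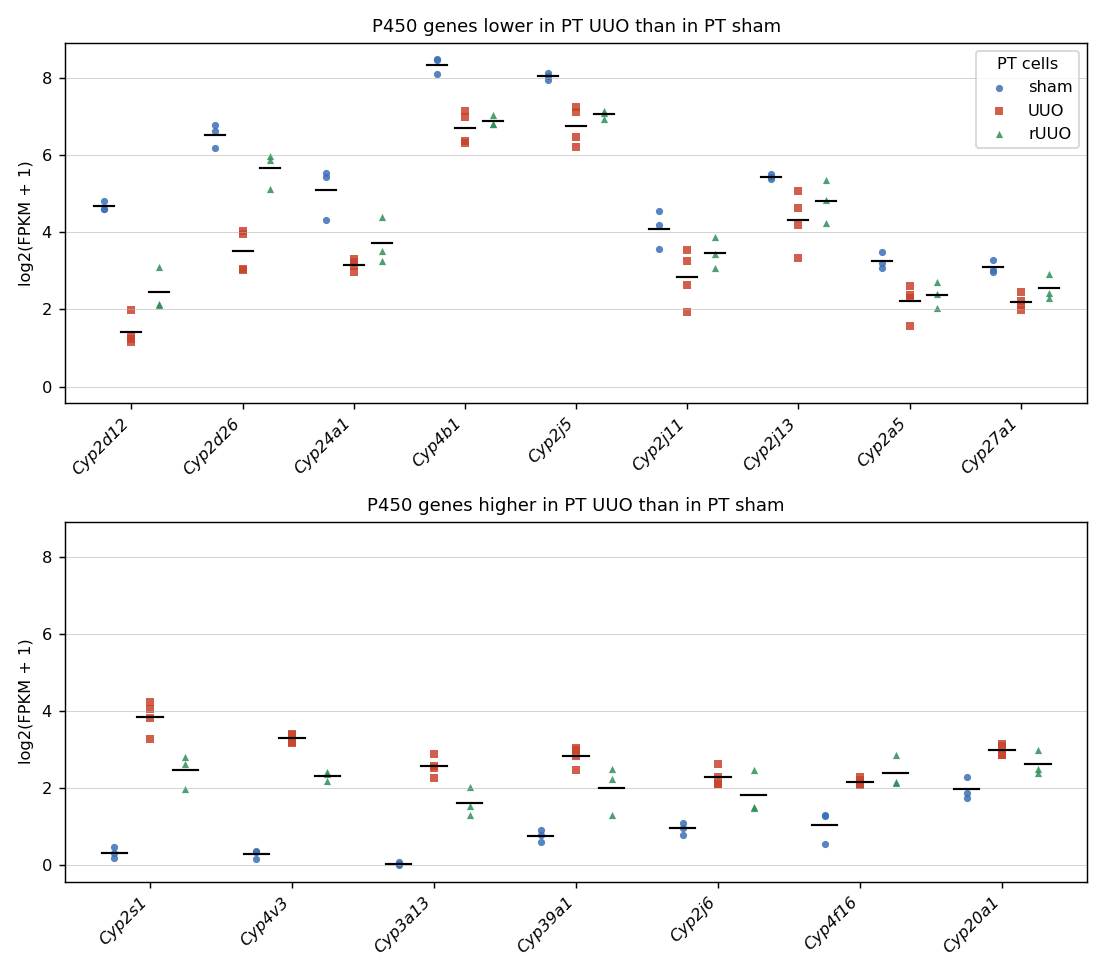
Level of the 9 P450 genes lower and the 7 higher in PT UUO than in PT sham (horizontal axis) as log2(FPKM + 1) (vertical axis) in each PT sham, UUO and rUUO sample, with black bars for group means. The genes were picked by the test of these same UUO and sham samples, so the gap between their UUO and sham points follows in part from that choice. The rUUO mean lies between the means of sham and UUO for all but Cyp4f16.

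Subfamily 2d, of drug-metabolising enzymes, held the 2 largest falls. Cyp2d12 was at 27.2, 23.3 and 23.2 FPKM in PT sham, at 1.22, 2.95, 1.48 and 1.36 in UUO and at 3.35, 3.38 and 7.57 in rUUO. Its UUO change was -3.25 (SE 0.31, adjusted p = 2.95e-06) and was still lower in rUUO than in sham, by -2.22 (SE 0.33, adjusted p = 0.000597). The 3 groups did not overlap. Cyp2d26 was at 109, 98.1 and 71.4 FPKM in sham, at 14.6, 15.4, 7.18 and 7.25 in UUO and at 61.8, 57.6 and 34 in rUUO. It fell by 3.01 in UUO (SE 0.31, adjusted p = 5.64e-06) and rose by 2.14 from UUO to rUUO (SE 0.31, adjusted p = 0.00225), and its rUUO level differed from sham by -0.87 (SE 0.33, adjusted p = 0.13). The other 2 members of the subfamily tested, Cyp2d9 and Cyp2d22, had changes of -0.56 (SE 0.42) and 0.23 (SE 0.34) that did not pass.

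The epoxygenase genes of subfamilies 2c and 2j went different ways. Of 6 tested, 3 fell in UUO and 1 rose. Cyp2j5 was at 73.7, 87.9, 138 and 151 FPKM in UUO against at least 246 in every sham sample, a change of -1.27 (SE 0.23, adjusted p = 0.000905), and at 122, 136 and 141 FPKM in rUUO, a change of -0.98 against sham (SE 0.25, adjusted p = 0.0266). The rUUO samples lay within the range of the UUO samples. Cyp2j11 (16.7 ± 5.72 in sham, 6.78 ± 3.43 in UUO, change -1.26, adjusted p = 0.0192) and Cyp2j13 (42.4 ± 1.89 and 20.6 ± 9.93, change -1.13, adjusted p = 0.0243) fell as well. The call of Cyp2j13 was lost when any 1 sham sample or UUO replicate 1 or 2 was left out, and that of Cyp2j11 without sham replicate 1 or 4. Cyp2j6 rose from 1.14, 0.96 and 0.74 FPKM in sham to 3.9, 3.31, 3.33 and 5.21 in UUO (change 1.33, SE 0.32, adjusted p = 0.00591), and its call was lost after quantile normalization. Cyp2c44 did not pass (change -0.68, SE 0.27, adjusted p = 0.0666).

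In family 4, the fatty acid hydroxylases, 1 of 7 genes tested fell and 2 rose. Cyp4b1 fell from a mean of 327 ± 48.2 (SD, n = 3) to 106 ± 30.9 FPKM (SD, n = 4), with 81.7, 78.9, 140 and 125 FPKM in the UUO samples (change -1.64, SE 0.22, adjusted p = 7.57e-05). In rUUO it was at 111, 130 and 111 FPKM and still lower than in sham by -1.46 (SE 0.23, adjusted p = 0.00109). Every rUUO sample of Cyp4b1 lay inside the range of the UUO samples. Cyp4v3, the mouse counterpart of human CYP4V2 (chr8:45304944-45333216), rose from 0.28, 0.3 and 0.12 FPKM in sham to 9.33, 9.6, 8.08 and 8.26 in UUO (change 2.99, SE 0.25, adjusted p = 8.22e-07) and was at 4.19, 4.36 and 3.54 in rUUO (change 2.03 against sham, adjusted p = 0.000214). Cyp4f16 rose from 1.41, 1.45 and 0.46 to 3.23, 3.27, 3.87 and 3.66 FPKM (change 1.13, adjusted p = 0.0121), a call lost after quantile normalization or without PT sham replicate 4. The PPAR-alpha target genes of subfamily 4a did not pass. Cyp4a10 was at 20.5, 25.2, 74.1 and 50.4 FPKM in UUO against 15.8, 33 and 19.3 in sham (change 0.76, SE 0.38, adjusted p = 0.138), and Cyp4a14 at 4.06, 3.55, 27.9 and 15 against 0.56, 4.37 and 3.59 (change 1.59, SE 0.61, adjusted p = 0.0587). Cyp4a31, which shares the stretch printed above with Cyp4a10, had a change of -0.20 (SE 0.32).

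Of the other family 2 genes, Cyp2e1 did not pass although it was among the 3 highest. It was at 169, 160, 242 and 255 FPKM in UUO, which spans the sham samples, with a change of -0.21 (SE 0.23, adjusted p = 0.493), and at 199, 189 and 329 FPKM in rUUO, with a change of -0.02 against sham (SE 0.24). Cyp2a5, the coumarin hydroxylase, fell from 8.65 ± 1.5 to 3.78 ± 1.32 FPKM (change -1.05, adjusted p = 0.0166), a call lost without PT sham replicate 2. Its near copy Cyp2a4 was at 6.23, 8.33 and 7.19 FPKM in sham, at 8.56, 4.8, 10.5 and 13.9 in UUO, and at 2.07, 3.33 and 1.98 in rUUO. Cyp2a4 fell by 1.53 from UUO to rUUO (SE 0.32, adjusted p = 0.0215) and by 1.27 from sham to rUUO (SE 0.34, adjusted p = 0.036). The first of these calls was lost in 4 of the 7 fits that left out 1 sample, and the second in 5 of 6. Cyp2s1 rose from 0.39, 0.25 and 0.14 FPKM in sham to 15.6, 13.1, 8.75 and 17.9 in UUO, the largest change of the 28 (3.52, SE 0.30, adjusted p = 1.1e-06), and was at 2.98, 5.95 and 5.14 in rUUO, lower than in UUO by -1.38 (SE 0.30, adjusted p = 0.0263) and higher than in sham by 2.14 (SE 0.33, adjusted p = 0.000704). Cyp3a13, the only tested gene of the drug-metabolising subfamily 3a, rose from 0.07, 0.03 and 0 FPKM to 3.83, 4.98, 4.75 and 6.36 (change 2.52, SE 0.30, adjusted p = 2.59e-05). In rUUO it was at 1.92, 3.1 and 1.45 FPKM.

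Among the genes of vitamin D and sterol metabolism, Cyp24a1, which inactivates vitamin D (chr2:170482708-170497145), fell from 42, 45.4 and 19 FPKM in sham to 8.81, 6.85, 8.32 and 7.75 in UUO (change -1.94, SE 0.33, adjusted p = 0.000523). In rUUO it was at 8.46, 19.9 and 10.5 FPKM, lower than in sham by -1.38 (SE 0.35, adjusted p = 0.0272), with groups that overlapped, and this call was lost without PT sham replicate 1 or 2 or PT rUUO replicate 2 or 4. Cyp27b1, which makes the active hormone, was at 0.7, 0.97 and 0.88 FPKM in sham and at 0.17, 1, 3.72 and 3.4 in UUO, and did not pass (change 0.52, SE 0.47). Cyp27a1 fell from 7.56 ± 0.975 to 3.59 ± 0.654 FPKM (change -0.90, SE 0.26, adjusted p = 0.0173), a call lost without PT sham replicate 2. Cyp39a1, an oxysterol hydroxylase of bile acid synthesis, rose from 0.9, 0.51 and 0.73 to 7.18, 4.53, 6.19 and 7.01 FPKM (change 2.07, SE 0.32, adjusted p = 0.0003). Cyp20a1, outside these lists and named after its values were seen as the last of the 7 rises, rose from 2.37, 2.66 and 3.93 to 7.62, 6.27, 7.87 and 6.33 FPKM (change 1.02, SE 0.27, adjusted p = 0.00984). Its call was lost without the mitochondrial genome and after quantile normalization.

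Markers of other tubule segments moved with these results. In PT samples the summed FPKM of 12 proximal tubule markers ranged over 2814 to 3774 for sham, 772.7 to 1065 for UUO and 1556 to 2193 for rUUO samples. That of 6 thick ascending limb markers was 25.13 to 29.2, 147.6 to 191.6 and 50.67 to 145.9, that of 8 distal and collecting duct markers 41.25 to 43.61, 312 to 440 and 152.3 to 216.6, and that of 6 markers of injured tubule 5.79 to 9.8, 400.2 to 884.9 and 122.7 to 160.2. None of these markers was at 0 in all samples of a PT group. Their part in the falls and rises of the P450 genes was not tested. The 4 PT UUO samples include 1 whose title also holds the word sham, UUO replicate 2, which was grouped by its treatment label. The falls of Cyp2d12, Cyp2d26, Cyp4b1, Cyp2j5 and Cyp24a1 and the rises of Cyp2s1, Cyp4v3, Cyp3a13 and Cyp39a1 stayed past the threshold without it.

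**Figure D4:**
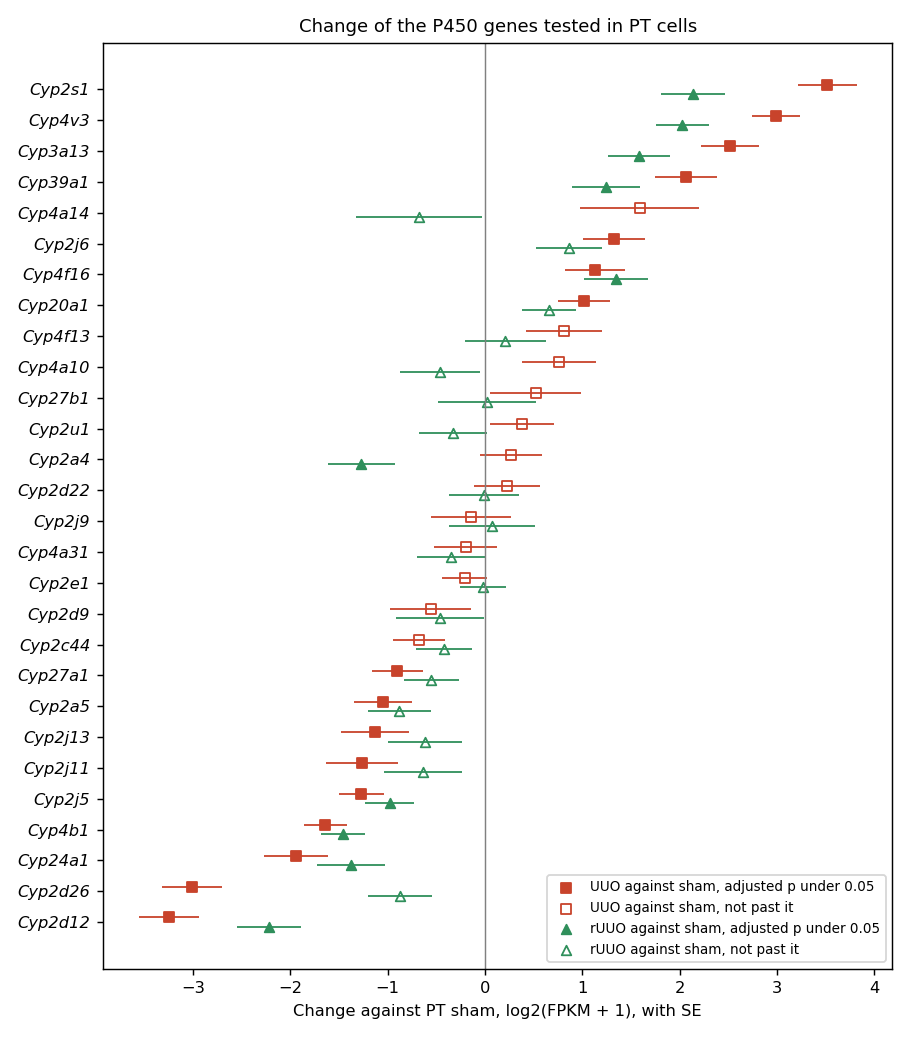
Change of the 28 P450 genes tested in PT cells (vertical axis) in UUO against sham (squares) and rUUO against sham (triangles), as the difference of mean log2(FPKM + 1) with SE bars (horizontal axis). Filled symbols passed an adjusted p of 0.05. The comparisons share the sham samples. Cyp2d26 lies at -3.01 in UUO and at -0.87 in rUUO, while Cyp4b1 lies at -1.64 and -1.46.

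The next question was what remained after reversal. In PT rUUO against PT UUO 1 of the 28 P450 genes was higher, Cyp2d26, where 0.674% of all genes tested were higher, and 3 were lower, Cyp2a4, Cyp2s1 and Cyp4v3, where 3.15% were lower. The split was 1 higher and 1 lower without the mitochondrial genome and 2 higher and 1 lower after quantile normalization. Of the 4 calls made with FPKM as deposited, only that of Cyp2d26 held when each sample was left out in turn. In PT rUUO against PT sham 5 were lower (Cyp2d12, Cyp4b1, Cyp24a1, Cyp2a4 and Cyp2j5), where 0.946% of all genes tested were lower, and 5 were higher (Cyp2s1, Cyp4v3, Cyp3a13, Cyp4f16 and Cyp39a1), where 6.52% were higher. The rUUO rises were 2.14 for Cyp2s1, 2.03 for Cyp4v3, 1.58 for Cyp3a13 (adjusted p = 0.00631), 1.35 for Cyp4f16 (adjusted p = 0.0209) and 1.24 for Cyp39a1 (adjusted p = 0.0442). Quantile normalization left 3 higher and 5 lower. The median change of the 28 genes against sham was -0.38, beside 0.21 for all genes tested. The rUUO calls of Cyp2d12, Cyp4b1, Cyp2s1, Cyp3a13 and Cyp4v3 held when each sample was left out, while that of Cyp2j5 was lost each time. Those of Cyp2a4 and Cyp39a1 were each lost in 5 of the 6 such fits, and that of Cyp4f16 without PT sham replicate 4 or PT rUUO replicate 4. With the replicate block the calls of Cyp2a4, Cyp3a13, Cyp4f16 and Cyp39a1 were lost.

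In stromal cells some of the P450 genes called in UUO against sham had also been called in PT cells. Cyp4v3 was called higher, and Cyp2j5 and Cyp27a1 lower, in UUO in both populations. In PT UUO 27.9% of all genes tested were higher and 4.91% lower. The share of all genes called in both populations was not counted, so this overlap is no result about the P450 genes. Cyp1b1 and Cyp7b1 did not pass the filter in PT cells and could not be compared. Of 17 P450 genes tested in stromal UUO against sham, 4 were higher, where 13.4% of all genes tested were higher, and 3 were lower, where 13% were lower. Cyp1b1 rose from 30.5 to 47.8 FPKM in the 4 sham samples to 168, 229, 146 and 194 FPKM in UUO (change 2.31, SE 0.18, adjusted p = 3.06e-07) and was at 176, 177, 170 and 157 FPKM in rUUO (change 2.22 against sham, SE 0.18, adjusted p = 8.43e-07). Cyp7b1, an oxysterol hydroxylase (chr3:18071950-18243338), rose from 1.38, 2.03, 0.39 and 1.45 FPKM to 20, 7.12, 10.3 and 15.3 in UUO (change 2.58, SE 0.34, adjusted p = 3.65e-05) and was at 10.6, 8.06, 10.8 and 12.5 in rUUO (change 2.35, adjusted p = 0.000144). For both genes every UUO and rUUO sample lay above every sham sample, and the calls held when each sample was left out. Cyp4v3 rose from 4.23 ± 1.08 to 10.5 ± 3.98 FPKM (change 1.10, adjusted p = 0.0129). Cyp2d22 rose from 6.84 ± 1.01 to 13.4 ± 3 FPKM in UUO (change 0.86, adjusted p = 0.00924), and its rUUO level was 20.8 ± 2.4 (change 1.48 against sham, adjusted p = 0.000222; SD, n = 4 each).

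Cyp2e1 fell and came back in stromal cells. It was at 18.3, 38.4, 10.6 and 22 FPKM in sham, at 1.7, 1.48, 1.49 and 1.34 in UUO, and at 22.4, 18.2, 25 and 22.7 in rUUO. The UUO samples lay below all others and close together. The change in UUO was -3.09 (SE 0.31, adjusted p = 2.71e-06), and the rise from UUO to rUUO was 3.20 (SE 0.31, adjusted p = 0.000138), where 2.95% of all genes tested were higher in that comparison. It was the only P450 gene of 17 called there. The rUUO mean was 99% of the sham mean and the UUO mean 6.73%. The summed level of the 12 proximal tubule markers in stromal cells was 24.5% of sham in UUO and 33.6% in rUUO. This sum includes Aqp1, which in stromal sham was at 39.8% of its PT level, beside a marker median of 2.11%. The part of tubule RNA in the stromal Cyp2e1 level was not tested. Cyp2j5, also a PT gene in sham, fell from 5.64 ± 1.16 to 1.28 ± 0.683 FPKM in UUO (change -1.57, adjusted p = 0.00348) and stayed lower in rUUO at 1.72 ± 0.947 (change -1.34, adjusted p = 0.0141). Cyp27a1 was at 3.74, 6.42, 16.4 and 8.16 FPKM in sham, at 0.51, 3.5, 2.05 and 2.86 in UUO and at 4.46, 7.24, 9.63 and 11.1 in rUUO. It was called lower in UUO (change -1.53, SE 0.43, adjusted p = 0.0153), a call lost without stromal sham replicate 3, and its rise to rUUO did not pass (1.54, SE 0.43, adjusted p = 0.0569).

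In stromal rUUO against sham 5 genes were higher, where 11.6% of all genes tested were higher, and 2 were lower, where 5.57% were lower. Beside Cyp1b1, Cyp7b1, Cyp2d22 and Cyp4v3 (change 1.07, adjusted p = 0.0209), Cyp2j9 was higher (change 1.27, adjusted p = 0.0261), and the lower genes were Cyp2j5 and Cyp2u1 (change -1.02, adjusted p = 0.0444). The calls of Cyp2j9 and Cyp2u1 were each lost in at least 6 of the 8 fits that left out 1 sample, and that of Cyp4v3 without stromal sham replicate 4 or stromal rUUO replicate 1 or 6. The split was 3 higher and 3 lower without the mitochondrial genome and 6 higher and 1 lower with FPKM rescaled to TPM. Marker levels moved here as well. The summed FPKM in stromal sham, UUO and rUUO was 325.2 to 418.1, 29.89 to 58.23 and 58.77 to 91.89 for the thick ascending limb markers, 225.2 to 391, 6.42 to 13.36 and 8.1 to 23.18 for the distal ones, 274 to 334.9, 89.21 to 154.9 and 106.4 to 180.2 for 10 endothelial markers, and 54.81 to 89.8, 10.04 to 23.28 and 12.06 to 29.6 for the proximal tubule markers. That of 10 stromal markers went the other way, with 3273 FPKM as its highest sham value, 9861 as its lowest UUO value and 6566 as its lowest rUUO value. The part of this in the stromal changes was not tested.

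**Figure D5:**
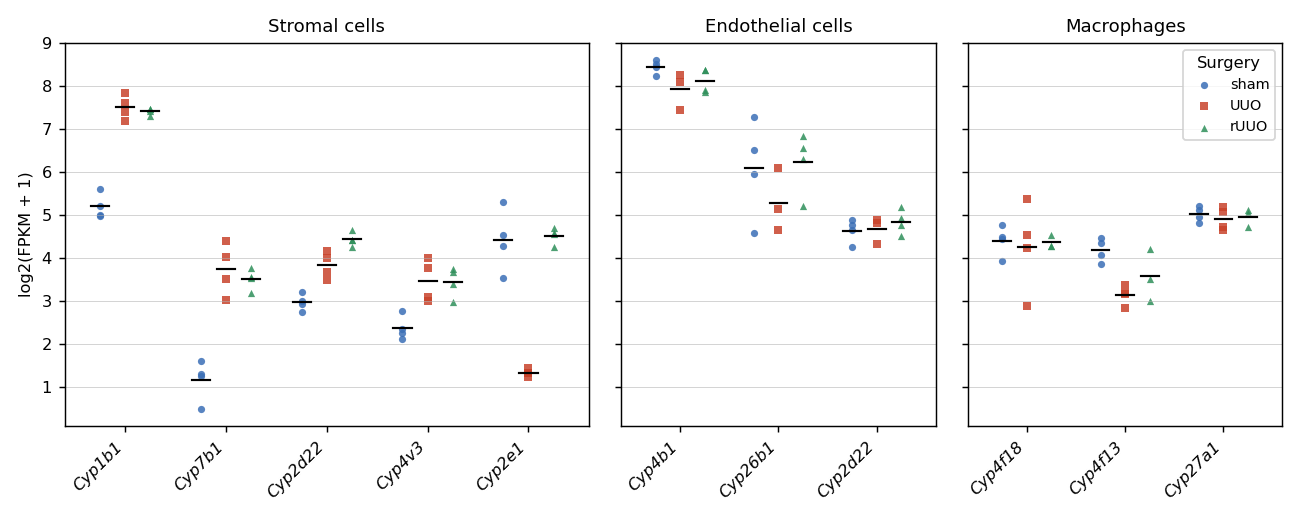
Level of selected P450 genes in stromal cells, endothelial cells and macrophages as log2(FPKM + 1) (vertical axis) in each sham, UUO and rUUO sample, with black bars for group means. Stromal Cyp1b1 and Cyp7b1 are higher in all UUO and rUUO samples than in sham, and stromal Cyp2e1 is low in the 4 UUO samples alone.

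In endothelial cells no P450 gene of 22 tested was called in any comparison by limma. In UUO against sham 1.98% of all genes tested were called in either direction, in rUUO against UUO 0.0597%, and in rUUO against sham 1.77%. At an unadjusted p under 0.05 there were 3, 4 and 3 P450 genes. Cyp26b1 was at 67.2, 34 and 24.1 FPKM in UUO and at 93.2, 114, 36 and 77.8 in rUUO, within the wide range of the sham samples. Cyp4b1 was at 273, 305 and 175 FPKM in UUO (change -0.52 against sham, SE 0.21, adjusted p = 0.285). Cyp1b1 was at 1.86, 3.97, 4.77 and 3.11 FPKM in sham and at 4.86, 11.3, 17.2 and 19.8 in rUUO, groups that did not overlap, with a change of 1.58 (SE 0.40, adjusted p = 0.0586). It is named after its values were seen.

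In macrophages 3 of 13 P450 genes tested were lower in UUO than in sham, where 2.13% of all genes tested were lower, and none was higher. Cyp2j5 was at 15.1, 10.7, 6.13 and 13.6 FPKM in sham and at 1.12, 3.29, 4.7 and 2.26 in UUO (change -1.72, adjusted p = 0.0169), and Cyp4b1 at 16.1, 16.5, 11.1 and 19.4 and at 5.74, 6, 4.05 and 4.64 (change -1.44, adjusted p = 0.0181). Both were also lower in rUUO than in sham, by -2.20 (adjusted p = 0.00677) and -1.74 (adjusted p = 0.0105), where 1.55% of all genes tested were lower. These are 2 of the 3 most abundant P450 genes of PT cells, and the summed proximal tubule markers in macrophages ranged over 150 to 206.5 FPKM for sham, 40.84 to 66.42 for UUO and 42.97 to 51.03 for rUUO samples. Their part in these falls was not tested. Cyp4f13, an eicosanoid and fatty acid hydroxylase gene that was highest in macrophages, fell from 17.4 ± 3.42 to 7.86 ± 1.31 FPKM (SD, n = 4 each; change -1.05, adjusted p = 0.0447), a call lost when any 1 sample was left out. Without macrophage sham replicate 1 or 2 none of the 3 calls was left in UUO. In rUUO against UUO no P450 gene and 0% of all genes tested were called by limma, and 1 P450 gene had an unadjusted p under 0.05. Cyp4f18 was at 22.1, 6.33, 40.5 and 17.7 FPKM in macrophage UUO, the widest spread of its groups.

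The last comparison asked whether the response to UUO differed between PT cells and each other population, as the difference between the 2 changes. Against macrophages 4 of 10 genes tested differed, where 16.5% of all genes tested did. Cyp4v3 differed most, with a change of 2.99 in PT cells and -0.29 in macrophages (difference 3.28, SE 0.31, adjusted p = 1.65e-07), followed by Cyp4f13 (0.81 and -1.05, difference 1.86, adjusted p = 0.0111) and Cyp2d26 (-3.01 and -1.36, difference -1.65, adjusted p = 0.0376). The call of Cyp2d26 was lost in 7 of the 15 fits that left out 1 sample, among them the one without macrophage UUO replicate 3. It was also lost with a pseudocount of 0.1 and with the replicate block. Macrophage Cyp2d26 was low, at a mean of 3.19 FPKM in sham and 0.82 in UUO, where the scale understates a change. The call of Cyp4f13 was lost after quantile normalization. Against endothelial cells 7 of 19 differed, where 13.1% of all genes did. Cyp2s1 changed by 3.52 in PT and by -0.03 in endothelial cells (difference 3.55, SE 0.56, adjusted p = 0.00012), Cyp4v3 by 2.99 and -0.45 (difference 3.44, adjusted p = 2.51e-07) and Cyp4f16 by 1.13 and -0.58 (difference 1.71, adjusted p = 0.0236). Cyp4b1 changed by -1.64 in PT and -0.52 in endothelial cells, a difference of -1.13 (SE 0.31, adjusted p = 0.0175), and is named after its values were seen. The calls of Cyp2s1 and Cyp4v3 held in all 14 fits that left out 1 sample and under the 5 other settings. Those of Cyp4b1 and Cyp4f16 were lost without endothelial UUO replicate 2 and with the replicate block. That of Cyp4f16 was also lost without PT sham replicate 4 or endothelial sham replicate 2 and after quantile normalization. Against stromal cells 6 of 14 differed, where 31% of all genes did. The largest differences were those of Cyp2s1 (3.52 and 0.58, difference 2.94, adjusted p = 3.51e-05), Cyp2e1 (-0.21 and -3.09, difference 2.88, adjusted p = 4.08e-06) and Cyp39a1 (2.07 and 0.13, difference 1.94, adjusted p = 0.00208). The 3 comparisons share the PT samples. Cyp2s1, Cyp4v3, Cyp39a1 and Cyp2j6, among the genes called here, were below 1 FPKM on average in PT sham. They passed the PT filter through the UUO and rUUO samples. Their PT change had little room to be a fall, so their differences and these counts follow in part from the filter.

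Many of the genes in the smaller lists were low or at 0 in all populations. None of the 6 steroidogenic genes passed the filter anywhere, with Cyp19a1 at 0 throughout and Cyp17a1 at up to 3.8 FPKM in 1 sample. Of family 1, Cyp1a2 was at 0 throughout and Cyp1a1 at no more than 2.04 FPKM, so that Cyp1b1 was its only member tested. Of the retinoic acid list, whose abundant member Cyp26b1 is described above, Cyp26a1 stayed at or below 1.31 and Cyp26c1 at or below 0.69 FPKM. Of the 9 genes of the vitamin D and sterol list, 4 passed the filter in PT cells, 2 in macrophages, 3 in endothelial cells and 3 in stromal cells. Cyp7a1 was at 0 throughout, Cyp8b1 at no more than 1.46 and Cyp46a1 at no more than 4.06 FPKM in any sample, while Cyp7b1 was at a mean of 0.23 in PT sham and 1.44 in PT UUO.

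Genes that work with the P450 enzymes were counted in the same way, beside 27.9% higher and 4.91% lower of all genes tested in PT UUO against sham and 13.4% and 13% in stromal UUO against sham. In PT UUO against sham 2 of 17 tested genes for electron donors and haem supply rose, Pgrmc1 (15.3 ± 2.96 to 35.8 ± 5.47 FPKM, change 1.17) and Cyb5r3 (change 0.81), and 3 fell, of which Cpox, an enzyme of haem synthesis, had a change of -0.86 and Cyb5a one of -0.64. Of 21 tested regulators of P450 genes 2 rose and 4 fell. The nuclear receptor gene Ppara fell from 8.44 ± 0.834 to 2.7 ± 1.42 FPKM (change -1.43, adjusted p = 0.00812), the bile acid receptor gene Nr1h4 from 34.7 ± 3.05 to 16.3 ± 5.32 (change -1.10, adjusted p = 0.0113), Rxra was lower (change -0.83), and Arnt, the partner of the aryl hydrocarbon receptor, rose (change 1.01). Hnf4a was lower as well (change -0.74, adjusted p = 0.0195). Of 14 tested genes that supply or take up P450 substrates and products 6 rose and 2 fell, among them Alox12 (change 2.68), Stra6 (2.40), Pla2g4a, which frees arachidonic acid (1.96), and Ephx1 (1.68). Of the P450 genes whose symbols the rule does not take, 4 were tested and Tbxas1, thromboxane synthase, fell (change -1.52, adjusted p = 0.0271). In stromal UUO against sham 6 of 17 such substrate and product genes rose and 3 fell, with changes of -3.41 for Kl, 3.01 for Aldh1a2, which makes retinoic acid, 2.14 for Ptgs2 and 1.93 for Aldh1a3, while Cyp26b1 had a change of -0.30 (SE 0.41). Of the distal and collecting duct markers 8 of 8 fell in the same comparison as Kl, a gene known from the distal tubule, and their part in its fall was not tested. Ahr, the aryl hydrocarbon receptor, was at 4.27 ± 1.54 FPKM in stromal sham and 11.5 ± 4.87 in stromal UUO (change 1.23, adjusted p = 0.0158).

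Promoters from RefSeq (GRCm38.p6, 250 bases before to 50 after a start) were matched by symbol for 73 of the 94 genes, 83 windows in all. The letters CAAAGT, a core of sites for HNF4, stood on either strand in 42.2% of the 83 and in 14.4% of all 32851 promoters of that table, the TATA box TATAAA in 38.6% and 13.6%, the HNF1 motif GTTAAT in 12% and 7.1%, and the AhR core GCGTG in 20.5% and 32.4%. No 1 of these motifs contains another. Many of the P450 windows with CAAAGT were of Cyp2c and Cyp3a genes, none of which passed the filter in any population. Related copies thus count as separate windows, and the 42.2% does not describe the P450 genes tested here. Of the 8 windows of genes that fell in PT UUO, 2 had CAAAGT, and of the 6 windows of genes that rose 1 had it. Of the 6 windows of genes tested in PT cells and not called, 2 had it. Cyp2d26, the gene that fell and rose again, has the HNF4, TATA and HNF1 motifs, the last 2 on the strand opposite to the one printed. The near copies Cyp2a5 and Cyp2a4, shown because only the first fell in UUO by the test, have all 3 on the printed strand. Cyp1b1, the stromal gene, has 1 AhR core, on the strand opposite to the one printed. The 250 bases before the start follow, with these motifs in capitals.
Cyp2d26, chr15:82794246-82794495, minus strand: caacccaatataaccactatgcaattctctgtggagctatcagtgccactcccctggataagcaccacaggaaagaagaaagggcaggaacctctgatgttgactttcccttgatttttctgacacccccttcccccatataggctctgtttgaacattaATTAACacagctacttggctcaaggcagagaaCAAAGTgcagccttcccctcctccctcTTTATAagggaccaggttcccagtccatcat
Cyp2a5, chr7:26835089-26835338, plus strand: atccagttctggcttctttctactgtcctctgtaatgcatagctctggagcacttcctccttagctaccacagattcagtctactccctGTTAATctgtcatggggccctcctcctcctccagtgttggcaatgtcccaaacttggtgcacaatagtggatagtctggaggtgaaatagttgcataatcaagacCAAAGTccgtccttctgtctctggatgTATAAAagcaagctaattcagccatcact
Cyp2a4, chr7:26306942-26307191, plus strand: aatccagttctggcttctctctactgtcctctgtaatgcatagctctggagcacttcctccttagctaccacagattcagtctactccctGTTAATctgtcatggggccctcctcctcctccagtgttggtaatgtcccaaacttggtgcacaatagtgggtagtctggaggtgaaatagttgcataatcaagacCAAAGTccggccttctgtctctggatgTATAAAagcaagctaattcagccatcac
Cyp1b1, chr17:79715062-79715311, minus strand: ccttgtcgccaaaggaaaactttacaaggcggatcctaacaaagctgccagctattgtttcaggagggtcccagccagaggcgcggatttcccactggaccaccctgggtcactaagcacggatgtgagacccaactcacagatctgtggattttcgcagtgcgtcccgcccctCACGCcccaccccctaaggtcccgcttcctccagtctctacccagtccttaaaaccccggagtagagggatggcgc
A match of letters is a description of the window and not a site in use.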

How the data were processed

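RNA was sequenced from 4 populations sorted from mouse kidney. Per the labels, the deposited FPKM were made by the authors against mm10, with FastQC, RSEM, Bowtie2 and DESeq2 named in the submitters' processing notes without a role or version. The study's methods give amplified cDNA (Ovation RNA-Seq System V2) and paired reads of 150 bases. FPKM were rounded to 2 decimals, so read depth is unknown. The steps of low values gave relative depths from 0.59 to 1.67. FPKM sums per sample ran from 586929 to 884982. The table has 46 value columns, of which 44 entered. Left out were 2 that carry the name of 1 endothelial UUO sample and could not be told apart by name. PT sham rests on replicates 1, 2 and 4: its replicate 3 matched no column name and was not analysed here, and whether 1 of these 2 columns holds it is not known.

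A gene was tested in a population where it averaged 1 FPKM or more, on log2(FPKM + 1) with limma 3.58.1 (R 4.3.3, eBayes with an intensity trend, two-sided), 1 fit per population, with Benjamini-Hochberg adjustment over all genes and a threshold of 0.05. Sham populations and differences between populations were fitted as contrasts over the samples compared. The fit was tested on simulated data. The members and gene lists were chosen with earlier results of these data known. Genes named were, in PT comparisons, up to 12 falls and 6 rises among those called, up to 3 each in other populations, up to 6 highest genes per population, up to 3 per difference between populations, the 3 highest in PT sham, and all of the vitamin D and sterol, steroidogenic, retinoic acid and family 1 lists. Close copies were to be marked by protein identity. As no protein table was used here, they were marked by shared 100-base windows of GENCODE M21 transcripts. Of the 94 genes 76 had the same coordinates in M21. Sequences were read from M21 transcripts and RefSeq promoters (Python 3.11.15).

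Tried in turn were TPM, a smaller pseudocount (0.1), all genes without the filter, rescaling without 37 mitochondrial genes, quantile normalization, a fit on all populations, no intensity trend, an added fold change of 1.5, the replicate number as a block, and leaving out each sample in turn.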

Additional observations from a re-analysis of the deposited data

Results flagged for a closer look

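In 85 groups of 4 samples of the P450 genes named above, or of their sum, 7 samples stood far from the other 3 of their group by a Dixon test, which flags about 5% of groups by chance. Cyp2d12 was at 2.95 FPKM in PT UUO replicate 2, where the other 3 were between 1.22 and 1.48. This is the sample whose title holds both surgery names. Cyp2d26 was at 2.77 FPKM in macrophage UUO replicate 3, against 0.13 to 0.2 in the others, and the summed P450 level of that sample was 165.1 FPKM, against 117.3 to 125.2. Cyp2s1 was at 2.99 FPKM in endothelial sham replicate 3, against 0.85 to 1.11, at 30 FPKM in stromal UUO replicate 3, against 9.17 to 11.49, and at 14.04 FPKM in stromal rUUO replicate 6, against 6.64 to 7.67. Cyp2u1 was at 1.26 FPKM in stromal UUO replicate 2, against 2.86 to 3.04.

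The change in UUO against sham differed between PT cells and another population for the genes with the largest differences of each test. Against endothelial cells the difference, PT minus endothelial, was 3.55 for Cyp2s1, 3.44 for Cyp4v3 and 1.71 for Cyp4f16. Against macrophages it was 3.28 for Cyp4v3, 1.86 for Cyp4f13 and -1.65 for Cyp2d26. Against stromal cells it was 2.94 for Cyp2s1, 2.88 for Cyp2e1 and 1.94 for Cyp39a1. Cyp2s1, Cyp4v3 and Cyp39a1 passed the PT filter through the UUO and rUUO samples, so in PT cells they had little room to fall. Of the thick ascending limb and distal markers, 3 of 6 and 4 of 7 tested rose in PT UUO, where 27.9% of all genes tested did, and 6 of 6 and 8 of 8 fell in stromal UUO, where 13% did. Their part in these differences was not tested.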

How the results depend on the processing

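Of 147 counts of called P450 genes under alternatives other than leaving out a sample, 19 were over 1.5 times from the value reported. Of 1141 values of single genes under all alternatives, those that left out a sample included, 189 no longer passed and 0 turned direction. In PT rUUO against UUO the count of 4 was 2 with a pseudocount of 0.1 or without the mitochondrial genome, 1 without a filter and 7 in the fit on all populations. In PT rUUO against sham the 10 were 5 without a filter. In macrophages the 3 in UUO against sham were 1 without a filter, and the 2 in rUUO against sham were 4 in the fit on all populations. In endothelial cells the fit on all populations called 2 in UUO and 2 in rUUO against sham, and TPM called 1 in the latter, where the main count was 0. In stromal cells the 1 in rUUO against UUO was 2 in the fit on all populations. The 12 genes highest in sham PT were 20 without a filter, and the 6 highest in sham macrophages were 2 without the mitochondrial genome. With no filter the number of genes tested differs by construction. For the other alternatives the cause was not tested.

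Leaving out 1 sample gave 1 to 3 calls in PT rUUO against UUO (fewer without PT UUO replicate 1, 3 or 4 or any PT rUUO replicate), 5 to 9 in PT rUUO against sham (fewest without PT rUUO replicate 4, and 6 without PT rUUO replicate 2 or any sham replicate), 0 to 3 in macrophage UUO against sham (0 without sham replicate 1 or 2, 1 without sham replicate 4), 1 to 2 in macrophage rUUO against sham (1 without rUUO replicate 4 or 6), 0 to 1 in endothelial rUUO against sham (1 without rUUO replicate 1), 4 to 6 in stromal rUUO against sham (4 without rUUO replicate 1) and 3 to 7 for the difference between PT and endothelial cells (3 without endothelial UUO replicate 2, and 4 without PT sham replicate 2 or 4, endothelial sham replicate 2 or 3 or endothelial UUO replicate 1). In PT UUO against sham it gave 13 to 17, and 11 of the 16 calls held each time.

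Same-numbered samples were compared by the correlation of their deviations from the group means. Samples of different populations under 1 surgery could share a mouse, which the labels do not give. Of 21 such pairs in sham, 2 correlated above 0.1 (median 0.01, highest 0.16). The highest was 0.07 in UUO and 0.05 in rUUO. Pairs of PT samples under different surgeries, which the design does not link, had a median of 0.04, with 1 of 8 above 0.1. The replicate block left 16 calls in PT UUO against sham and 4 in rUUO against UUO. It gave 6 in PT rUUO against sham, 1 in macrophage UUO against sham, 0 in macrophage rUUO against sham, 3 in stromal rUUO against sham, and 2 each for the differences of PT from macrophages and from endothelial cells.

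Depth is not known, so the 24 genes that stayed below 1 FPKM and the 24 listed at 0 throughout were not resolved.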

Other observations

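Within PT UUO several P450 genes had 2 lower and 2 higher samples. In the order of replicates 1 to 4, Cyp4a14 was at 4.06, 3.55, 27.9 and 15 FPKM, Cyp4a10 at 20.5, 25.2, 74.1 and 50.4, Cyp4a31 at 15.5, 18.1, 40.7 and 40.3, Cyp4b1 at 81.7, 78.9, 140 and 125, Cyp2j5 at 73.7, 87.9, 138 and 151, Cyp2e1 at 169, 160, 242 and 255, and Cyp27b1 at 0.17, 1, 3.72 and 3.4 FPKM. Cyp2d26 had the opposite order, at 14.6, 15.4, 7.18 and 7.25 FPKM, and Cyp4v3 was even, at 9.33, 9.6, 8.08 and 8.26. The study took UUO kidneys at day 2 and day 7 and the labels do not give the day of a sample, so no day was assigned and the pattern, noticed after the values were seen, was not tested.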
